A study of Drosophila melanogaster with 2 samples.

Results

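Binding of the zinc-finger protein Sob is described here at 9 genes of the Drosophila insulin and TOR pathway, namely InR, chico, Akt, foxo, Tor, Rheb, S6k, scyl and chrb, of 13945 protein-coding genes on the main chromosome arms. A peak belonged to a gene when its summit, the base of highest enrichment, lay in the gene body or within 10 kb of it, and 30 of the 7002 peaks of the main list did so. The genes were chosen from measured values, since the dense peaks around scyl and chrb in this same list were known when they were picked, so their peak counts and signals in it are a description with no test. The main list was built from both replicates, and each replicate also has a list of its own.

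Insulin-like peptides bind the receptor InR, which signals through the adaptor chico and PI3 kinase to the kinase Akt, and Akt keeps the transcription factor foxo out of the nucleus. The kinase Tor, switched on by the small GTPase Rheb, drives protein synthesis and growth through S6k when nutrients are plentiful. The related proteins scyl (scylla) and chrb (charybde) are stress-induced inhibitors of growth that act between Akt and Tor. Sob belongs to the odd-skipped family, whose members pattern the embryo and its gut.

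The samples were 2 biological replicates of whole Drosophila melanogaster embryos 0 to 24 h old, from a fly strain with an insertion that makes Sob fused to enhanced green fluorescent protein (eGFP). Chromatin was sonicated to 200 to 800 bp, an antibody to GFP pulled down the fusion, and the labels name a control experiment. There is 1 group from 1 strain, with no other genotype, stage or treatment, and embryos of all these ages and all their tissues are mixed, so a peak cannot be assigned to a tissue or stage. Replicates 1 and 2 had 4490 and 4626 peaks in their own lists, and a stricter conservative list from both had 4929. The main list had a median signal of 133, where signal is the authors' enrichment value per peak with no stated scale. It carries no error, is compared within 1 list only, and the number of reads behind it is unknown. Place is the rank by signal, counted from the strongest peak.

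The sequences below are the strongest summits of InR, foxo, scyl and chrb, the shared promoter peaks of Tor and Rheb, the intronic summit of S6k, and the strongest summit between scyl and chrb. They are shown because the results on position and base composition turn on these peaks. Each is 101 bases of the plus strand, 5′ to 3′, centred on the summit, from RefSeq's release 6 of the genome, which has dm6 coordinates. Capitals mark CAGTAGC, the core of the odd-skipped family motif, at InR and GTAAACA, a forkhead element, at S6k, both read on the minus strand.
InR, coding exon, chr3R:21580219-21580319: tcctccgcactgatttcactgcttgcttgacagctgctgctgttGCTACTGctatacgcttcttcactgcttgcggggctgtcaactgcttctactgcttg
foxo, upstream, chr3R:14053549-14053649: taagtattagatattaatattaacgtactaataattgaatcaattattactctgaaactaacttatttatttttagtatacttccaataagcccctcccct
Tor, promoter, chr2L:13004185-13004285: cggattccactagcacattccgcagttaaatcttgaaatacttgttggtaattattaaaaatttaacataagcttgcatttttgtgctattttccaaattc
Rheb, promoter, chr3R:5568675-5568775: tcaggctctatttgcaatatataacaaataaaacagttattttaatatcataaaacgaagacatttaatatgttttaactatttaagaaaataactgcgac
S6k, intron, chr3L:5807505-5807605: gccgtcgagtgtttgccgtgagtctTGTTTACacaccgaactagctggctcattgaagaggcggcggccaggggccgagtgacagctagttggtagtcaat
scyl, downstream, chr3L:11256298-11256398: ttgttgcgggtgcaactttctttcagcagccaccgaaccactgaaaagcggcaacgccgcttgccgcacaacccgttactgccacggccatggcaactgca
chrb, intron, chr3L:11491409-11491509: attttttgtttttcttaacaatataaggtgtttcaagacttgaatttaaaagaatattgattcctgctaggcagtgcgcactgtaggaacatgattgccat
between scyl and chrb, chr3L:11418462-11418562: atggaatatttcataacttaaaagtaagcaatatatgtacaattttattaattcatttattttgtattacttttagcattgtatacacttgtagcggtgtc

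Sob peaks lay near 8 of the 9 genes, chico being the exception, where 73.4% of all protein-coding genes had one. A summit lay within 1000 bp of an annotated transcription start site (TSS) in 6 of the 9, namely InR, Tor, scyl, Rheb, chrb and foxo, against 32.9% of all protein-coding genes. The same measure gave the same 6 genes in replicate 1's own list, where 24.3% of all protein-coding genes had a promoter peak. It gave 5 in replicate 2's, where 24.4% did, with Akt among them and without foxo and chrb. InR, Tor, Rheb and scyl had a promoter peak in both own lists, which makes 4 of 9 genes against 19.0% of all. The peak counts ran from 0 at chico to 7 at foxo and at scyl, and 3.33% of all protein-coding genes had 7 or more.

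The signals of the 30 peaks ran from 75 to 949 with a median of 190, and 17 of them exceeded the median of the whole list. Of the 30, 16 overlapped a peak in both own lists, or 53.3% against 43.4% of all main-list peaks. A further 6 overlapped replicate 1's list only, against 16.8% of all main-list peaks, 1 replicate 2's list only, against 18.2%, and 7 neither, against 21.7%. The conservative list held 24 of the 30, or 80% against 68.4%. All 16 peaks found in both own lists lay above the list's median signal, and the remaining one above it was the Akt peak. The own lists share their reads with the main list, so they are no independent repeat of it. At the edge of the 10 kb window, the farthest peak inside lay 8637 bp from InR with a signal of 315, and the nearest outside lay 10729 bp from foxo with 93.9.

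**Figure D1:**
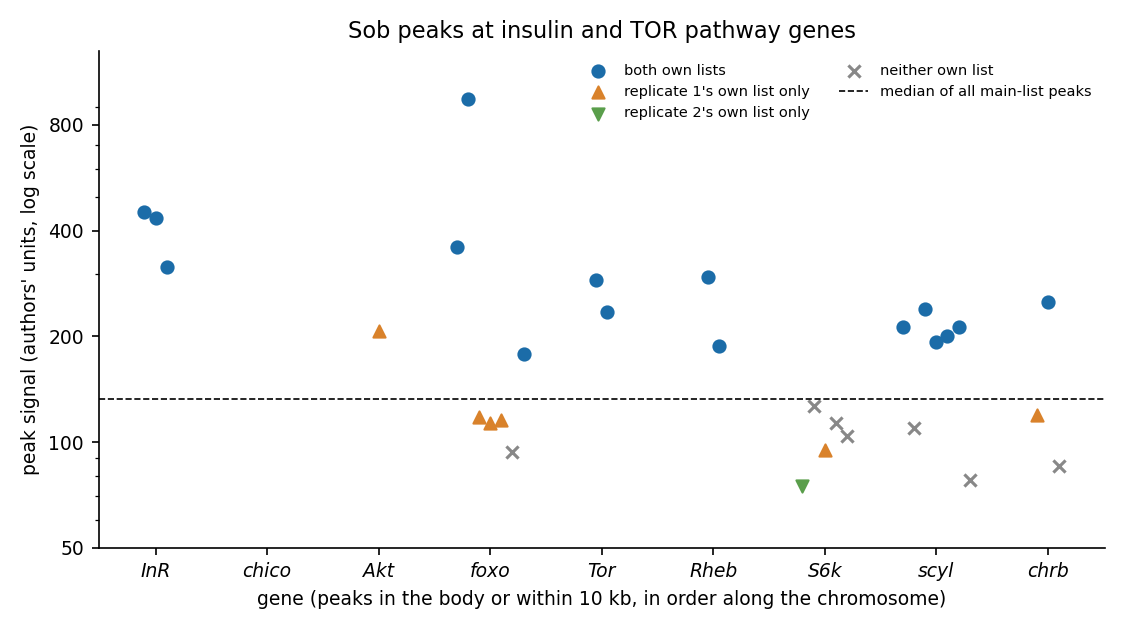
Signal of each of the 30 main-list peaks (log axis, authors' units) by gene, in order along the chromosome, with the symbol showing which replicate's own list held an overlapping peak and the dashed line at the list's median of 133. The foxo peak at 949 is the highest, all S6k peaks lie below the line, and chico has none.

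At the top of the pathway, InR (FBgn0283499; 3R, 21570248 to 21619321, minus strand), the insulin receptor, had 3 strong peaks, all of them in both own lists. Each distance is given between a summit and the closest start site of the gene named with it. The strongest lay in a coding exon, 9922 bp downstream of an internal start site at position 21590191, one of 4 annotated for InR. Its signal was 451.6 (place 489) in the main list, 188 in replicate 1 and 241 in replicate 2. Only 1.04% of all main-list summits lay in coding exons outside promoters. The promoter peak lay 651 bp upstream of the same internal start site, with 435.4 in the main list (place 521), 190 in replicate 1 and 251 in replicate 2. Its signal exceeded that of 87.3% of genes with a promoter peak. The last peak, 8637 bp upstream of the outermost start site, lay in an intron of the neighbour E2f1, a transcription factor of the cell cycle, with signals of 314.9, 124 and 186 in the main list and replicates 1 and 2. With 3 peaks in a window of 69.1 kb, where the mean density over the arms would give 3.61, InR was not rich in peaks for its length.

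The adaptor gene chico (FBgn0024248; 2L, 10242512 to 10247078, minus strand), the insulin receptor substrate, had no peak in the main list, where its length would give 1.28. Replicate 2's own list held 1 peak 2813 bp upstream of it, with a signal of 65.8 at place 3850 of 4626, nearer to the start of bsk, which encodes the JNK kinase. In the full ranked lists, made before the threshold, the window held 31 peaks in replicate 2, up to that same 65.8, and 17 in the list behind the main list, up to 64.8 with a score of 574. Replicate 1's ranked list had none there, the gene lying in a stretch of 72501 bp without any ranked summit. The nearest main-list summits lay 11044 bp and 14037 bp outside the gene body, with signals of 81.1 and 140.

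Akt (FBgn0010379; 3R, 16099228 to 16105670, plus strand), the kinase that relays the insulin signal, had 1 peak, and it lay at another gene's promoter. The summit, 1369 bp upstream of Akt, was 902 bp inside Mhcl, a gene for a myosin heavy chain-like protein, with a signal of 206.5 at place 1869. In replicate 1 it had a signal of 142, and replicate 2's own list lacked it, its ranked value there being 75.5 with a score of 522, under the lowest score of 830 in the thresholded lists. Replicate 2's list had instead a peak of 76.9 located 681 bp inside Akt that the main list lacks. The single Akt peak thus lay at different positions in the own lists. In replicate 2's ranked list the signals at both positions were close, 75.5 and 76.9. Replicate 1's ranked list had no summit at the Akt promoter.

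foxo (FBgn0038197; 3R, 14056945 to 14087978, plus strand), the transcription factor held back by insulin signalling, had the strongest peak of all 9 genes. This peak lay 3346 bp upstream of the gene, outside any annotated gene, with a signal of 949.0 (place 110, above 98.4% of the list). It ranked as high in the own lists, at place 140 with 468 in replicate 1 and at place 85 with 484 in replicate 2. A second upstream peak, at 4547 bp, had signals of 359.9, 201 and 171 in the main list and replicates 1 and 2. The promoter peak of foxo was weak by comparison, with 118.0 in the main list at 510 bp upstream and 64.8 in replicate 1, and no peak in replicate 2's own list. Only 27.0% of genes with a promoter peak had a lower value.

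The other foxo peaks lay inside or beyond the gene. An intronic summit had a signal of 113.1 in the main list and 63.3 in replicate 1, with none in replicate 2's list. Downstream, 2 peaks of 115.4 and 93.7 lay in promoters of Npc2b, a gene of the NPC2 sterol-binding protein family, 560 and 531 bp upstream of different start sites. A peak of 177.8 lay in an intron of CCHa1, which encodes the neuropeptide CCHamide-1, and had 89.7 and 71.1 in replicates 1 and 2. In all, foxo had 7 peaks where its length would give 2.67, of which 3 were in both own lists, all of them outside the foxo gene body.

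**Figure D2:**
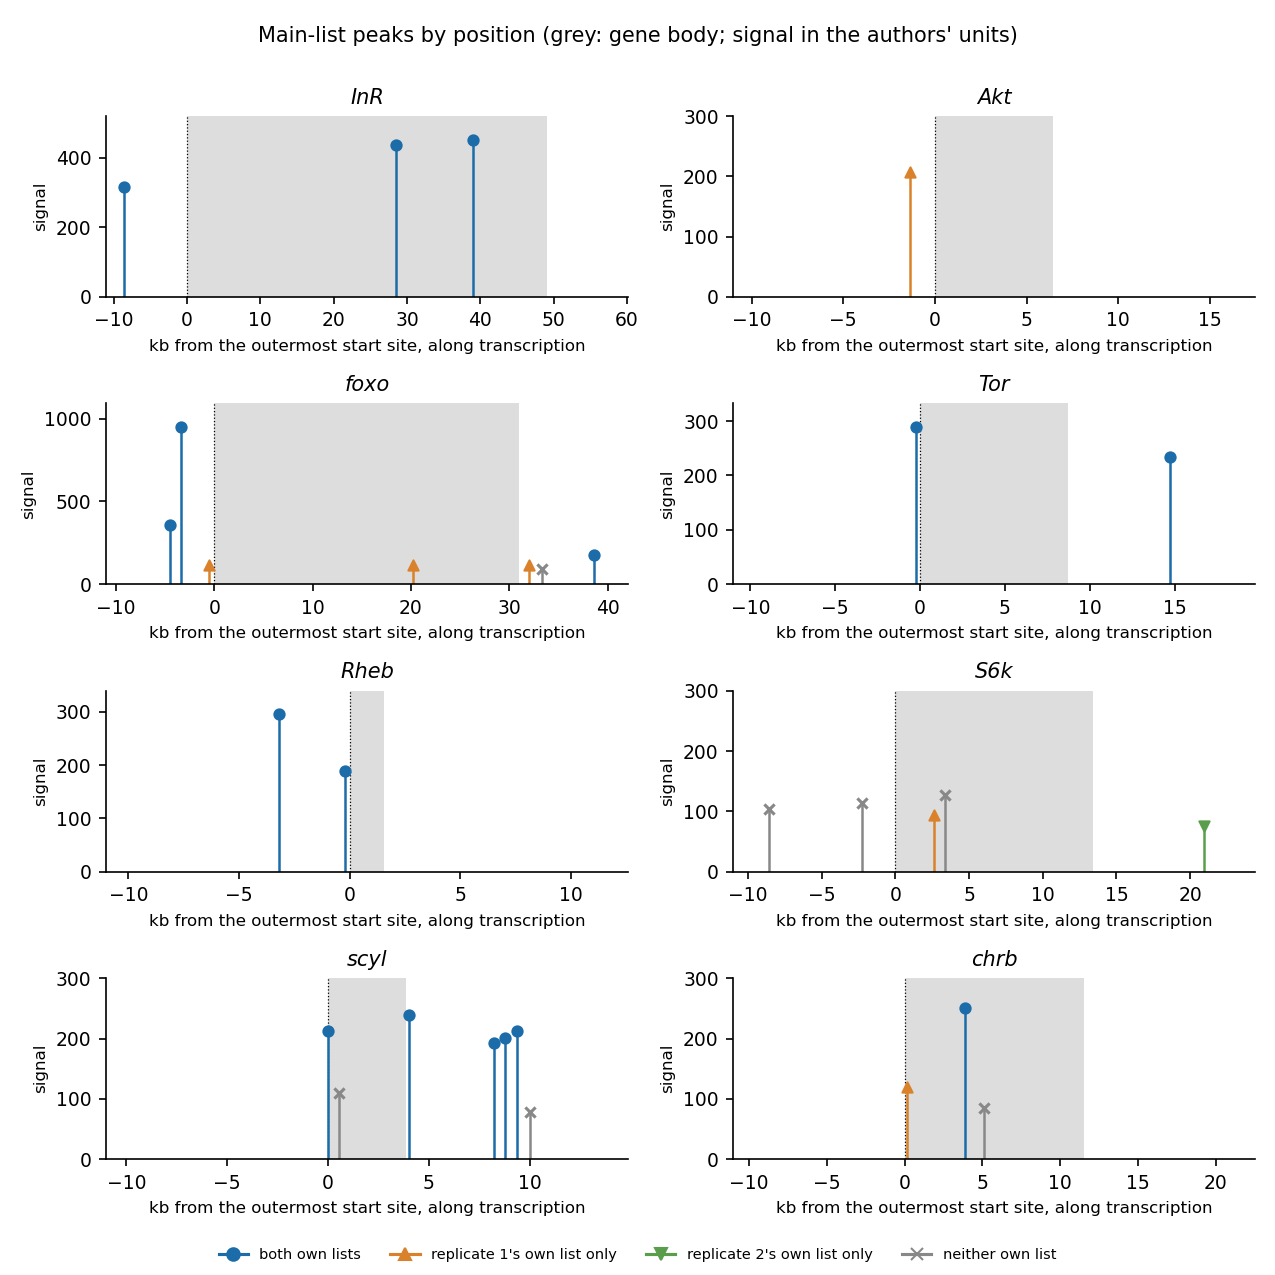
Main-list peaks of the 8 genes that have any, plotted by signal (authors' units) against distance in kb from the gene's outermost start site along transcription, with the gene body in grey and symbols as in the plot of signals by gene. At foxo the highest peaks stand upstream of the gene and at scyl the cluster runs downstream of it.

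In the TOR branch, Tor (named mTor in the annotation; FBgn0021796; 2L, 13004480 to 13013197, plus strand), the growth kinase itself, had 2 peaks, both at promoters and both in each own list. The first lay 245 bp upstream of Tor and 128 bp upstream of Vha68-1, a subunit of the vacuolar proton pump, so that both genes share it. Its signal was 289.0 in the main list, 192 in replicate 1 and 95.5 in replicate 2, at places 1093, 765 and 2148. The other, 5999 bp beyond the end of Tor, lay 49 bp upstream of Ube4B, a ubiquitin ligase gene, with 234.6, 125 and 124.

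Rheb (FBgn0041191; 3R, 5568921 to 5570491, plus strand), the GTPase that activates Tor, also shared its promoter peak with a neighbour. That summit lay 196 bp upstream of Rheb and 110 bp upstream of CG2931, with a signal of 188.3 in the main list (place 2131), 98.4 in replicate 1 and 92.7 in replicate 2. The stronger peak, 3192 bp upstream of Rheb, lay in the promoters of CG12746 and CG14671, with 294.8, 152 and 149. The replicates gave close places for both peaks, 1109 and 990 for the stronger and 2099 and 2255 for the promoter peak.

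S6k (FBgn0283472; 3L, 5797549 to 5810931, minus strand), the kinase of ribosomal protein S6 downstream of Tor, had 5 peaks but none stronger than the list's median and none in both own lists. Its best summit, in an intron 3376 bp inside the gene, had a signal of 126.9 (place 3744) in the main list, and 46.7 and 78.6 in the replicates' ranked lists, with scores of 825 and 790 that missed 830. A neighbouring intronic peak had 94.8 and was found in replicate 1 only, at 57.0. Outside the gene, 1 peak of 113.6 stood at the promoter of mad2, a spindle checkpoint gene, and 1 of 104.1 in an intron of vn, which encodes the EGF receptor ligand vein, both absent from both own lists. The peak of 75 in the 3′ UTR of Bre1, a ubiquitin ligase for histone H2B, was in replicate 2's list only, at 60.6. The peak count at S6k varied with the list, being 5 in the main list, where its length would give 1.75, 3 in the conservative list and 1 in each own list.

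The inhibitor genes scyl and chrb lie inside a stretch of 3L dense in peaks, which extends beyond both genes (11150001 to 11556749). scyl (FBgn0041094; 3L, 11252307 to 11256172, plus strand) had 7 peaks in 23.9 kb where its length would give 1.25, and 5 of the 7 were in both own lists. The promoter summit lay 6 bp inside the TSS, with a signal of 212.0 in the main list (place 1786), 76.2 in replicate 1 and 141 in replicate 2. The strongest, 4041 bp from the TSS and 176 bp past the end of the gene, had 238.6, 82.2 and 158. In both cases replicate 2 ranked the peak higher, at places 1082 and 881 against 2890 and 2666 in replicate 1. A group of 3 further peaks at 8215, 8763 and 9393 bp had main-list signals of 192.2, 200.5 and 212.7, with 81.0 to 128 in replicate 1 and 92.3 to 112 in replicate 2. The remaining peaks, of 109.4 at 569 bp and 77.8 at 10008 bp, were in neither own list. No main-list summit lay within 10 kb upstream of scyl, the next being 12880 bp away with a signal of 102, while replicate 2's own list had one of 62.3 at 3786 bp upstream.

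chrb (FBgn0036165; 3L, 11487550 to 11499055, plus strand) had 3 peaks, all inside the gene. An intronic summit 2412 bp upstream of the inner of its 2 start sites was the strongest, with a signal of 250.0 in the main list (place 1373), 123 in replicate 1 and 138 in replicate 2. At the outer start site, a summit 132 bp inside had 119.5 in the main list and 47.5 in replicate 1. Replicate 2's ranked value there was 73.4 with a score of 828, which narrowly missed 830. The third peak, of 85.4 in the same intron, was in neither own list. Of the 3 chrb peaks, 1 was thus in both own lists, and 2 were in the conservative list. The nearest main-list summits outside the gene lay 38409 bp before it and 31618 bp past its end.

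The stretch of 3L from 10 kb before scyl to 10 kb after chrb (11242307 to 11509055, 267 kb) held 48 main-list peaks where the mean density gives 13.9. This is a ratio of 3.44. The ratio was 3.48 in replicate 1's own list, 3.80 in replicate 2's and 3.87 in the conservative list. Of 13232 overlapping windows of the same length stepped along the arms, 0.227% held 48 or more, and their median was 14.0. Those 30 windows form 2 stretches, both on 3L, one around scyl and chrb (11150001 to 11556749) with 67 peaks and the other near the arm's tip (460001 to 906749) with 81. The density around scyl and chrb was part of why these genes were chosen, so it is a description.

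**Figure D3:**
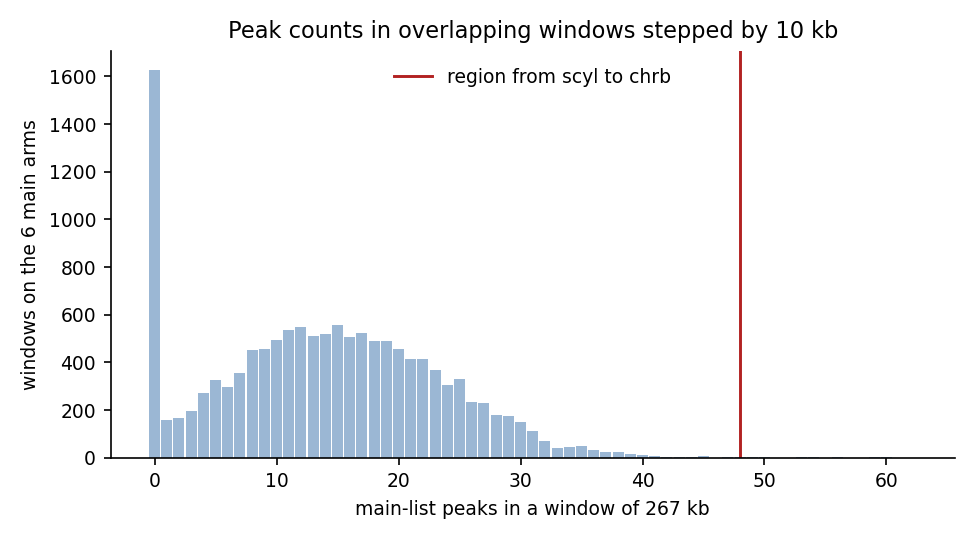
Number of windows of 267 kb (vertical axis) by the number of main-list peaks in each (horizontal axis), over all windows stepped by 10 kb along the 6 main arms; the red line marks the region from scyl to chrb. The line at 48 lies far to the right of the median of 14.0, and the windows that overlap share peaks.

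In the main list the density was the same away from both genes as over the whole region. The part over 10 kb from both, 211 of the 267 kb, held 38 of the 48 peaks where the mean density gives 11.1, again a ratio of 3.44. In the other lists this part had a lower ratio than the whole region. It was 3.11 against 3.48 in replicate 1's own list, 3.70 against 3.80 in replicate 2's and 3.73 against 3.87 in the conservative list. The start sites of scyl and chrb are 235 kb apart, and the spacing was uneven: the median gap between neighbouring summits was 2252 bp against 6278 bp over the arms, yet the longest gap, of 38541 bp, ran from 197 to 235 kb after the scyl TSS and ended at the chrb promoter peak. That gap covers several small genes, among them Fum3, a gene of the fumarase family, and Vha16-2 and Vha16-3, which encode subunits of the vacuolar proton pump.

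Summits in this region lay mostly outside genes. Of the 48, 30 were intergenic, or 62.5% against 8.80% of all main-list summits, and 12 were in promoters, or 25% against 63.0%. The intergenic share was 61.3% in replicate 1's own list, against 10.2% of all its summits, and 60% in replicate 2's, against 6.90%. The annotation leaves 79.9% of the region outside genes, against 30.5% of the arms, and the part of this in the shares was not tested. Counted over sequence outside gene bodies alone, the region had 16.9 main-list summits per 100 kb against 6.20 over the arms, with 10.8 against 4.73 in replicate 1 and 11.3 against 4.05 in replicate 2. The density in the region was thus above the arms' mean in each list also where genes are left out. That mean includes stretches without peaks, as 1626 of the 13232 windows held none in the main list. How far they lower it was not tested.

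The strongest peaks of the region were far from both genes. The highest, 166205 bp after the scyl TSS and in no gene, had a signal of 605.1 (place 268) in the main list, 393 (place 191) in replicate 1 and 235 (place 390) in replicate 2. The next, at 153725 bp, had 473.4, 289 and 191 and lay in the non-coding gene lncRNA:CR44363, at its promoter. A peak at 97756 bp, with 453.1, 273 and 167, lay at the promoter of lncRNA:CR45251. Each of these exceeded every peak within 10 kb of scyl or chrb in the main list. Of the region's other coding genes, 3 of 16 had a promoter peak, against 32.9% of all, with signals of 122 at Dyro, 83.9 at CG11726 and 78.0 at CG6163. Of its 20 non-coding genes 6 had one, against 15.4% of all annotated genes that do not code for protein. Both own lists held 25 of the 48 peaks, or 52.1% against 43.4% of all main-list peaks. Replicate 1's alone held 4, against 16.8% of all, replicate 2's alone 7, against 18.2%, and neither 12, against 21.7%. In the main list, 2 peaks with signals of 5.91 and 9.01 overlapped stronger neighbours, and counting overlapping peaks once left 46.

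**Figure D4:**
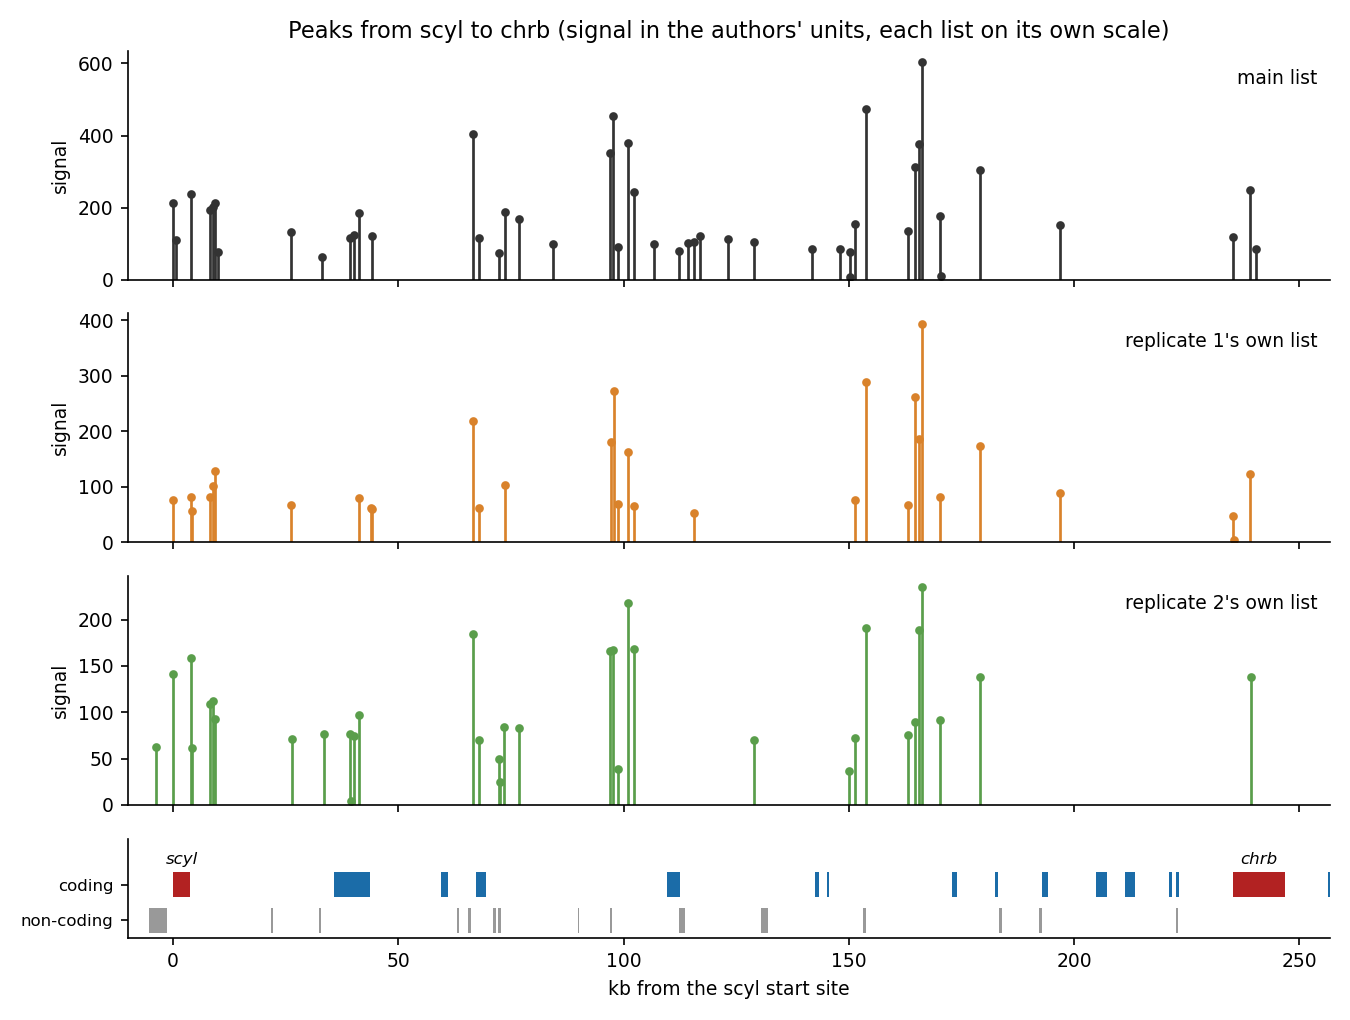
Signal of each peak (authors' units, each list on its own scale) against distance in kb from the scyl start site, in the main list and each replicate's own list, with coding and non-coding genes drawn below. The highest peaks, near 98, 154 and 166 kb, appear in all 3 lists, and a gap precedes chrb.

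Among the summit classes, 13 of the 30 peaks of the 9 genes were in a promoter of any gene, or 43.3% against 63.0% of the list, 8 in introns, 7 intergenic (23.3% against 8.80%), 1 in a coding exon and 1 in a 3′ UTR. Of the 30, 7 lay within 1000 bp of the member's own TSS, 6 only at the promoter of another gene and 17 at no promoter. For 17 of the 30 the nearest protein-coding TSS was the member's own. The 7 intergenic summits belonged to foxo and scyl. Thus at Akt and S6k no main-list summit lay at the gene's own promoter, and at Tor and Rheb it was shared.

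The bases around the summits varied widely. G+C in the 101 bases was 36.9% ± 10.3 (SD, 30 summits) against 39.4% ± 11.1 for all main-list summits, and ran from 22.8% to 58.4%. The strongest foxo summit (24.8%) and the strongest summit between scyl and chrb (23.8%) were rich in A and T, as their printed sequences show. The downstream scyl summit (58.4%), the S6k intron (56.4%), the summit near Ube4B (53.5%) and the InR coding exon (52.5%) were at the other end. Signals at this end were, in that order, 238.6, 126.9, 234.6 and 451.6, where the list's median was 133. The A and T rich foxo summit had 949.0. The summits with the lowest G+C (22.8%) had 314.9 in the E2f1 intron, 188.3 at the Rheb promoter and 177.8 in the CCHa1 intron. A relation between G+C and signal was not tested.

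Motifs were searched on both strands within 50 bp of each summit. The odd-skipped family motif ACAGTAGC was at none of the 30 summits and at 0.129% of all main-list summits, and its core CAGTAGC, which it contains, was at 1 of 30 (3.33%) and at 0.743% of all. That match, in the coding exon of InR, reads along the gene's own strand and begins at the summit base. The forkhead element GTAAACA, a letter string bound by foxo and its relatives, was at 1 of 30, the S6k intron, and at 3.66% of all. The element GAGAG was at 3 of 30, the promoter summits of InR, scyl and chrb, and at 12.4% of all. ACGTG, the core of the hypoxia response element, was at 1 of 30, the Akt peak, at 4 of the 38 summits between scyl and chrb (10.5%) and at 8.33% of all. GGTCACACT, a core promoter motif, was at the summit near Ube4B alone among the 30 and at 1.11% of all. TATCGATA (2.51% of all) and CATCGATG (0.314%) were at none of the 30, nor was the E-box CACGTG, which holds the hypoxia core and was at 1.16% of all. The early embryonic Zelda element CAGGTAG, at 0.443% of all, was at none of the 30 either. A match is a string of letters and not a measured site.

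Other genes of the pathway, taken from lists by role, were counted in the same way. Of 53 such genes, 25 had a promoter peak in the main list (47.2% against 32.9% of all protein-coding genes) and 14 had one in both own lists, where 19.0% of all did. A summit in the body or within 10 kb was found for 45 of the 53 (84.9% against 73.4%). The lists were written with earlier results of these data known, and the shares were not tested.

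The insulin-like peptides and the proteins that bind them had the lowest share. Only 1 of 11 had a promoter peak (9.09% against 32.9% of all protein-coding genes). This was ImpL2, a secreted protein that binds the peptides, with a signal of 85.9 and no promoter peak in either own list. None of Ilp1 to Ilp8 had a promoter peak. A summit in the body or within 10 kb was found for 5 of the 11 (45.5% against 73.4% of all protein-coding genes). Ilp1 to Ilp4 lie side by side on 3L (9798420 to 9804263), so their windows overlap and they are not separate loci. The PI3 kinase branch had the highest share, with 7 of 9 (77.8%). In it, sgg, the fly GSK3 kinase, had a promoter signal of 634.7 (323 and 297 in replicates 1 and 2) and Pi3K21B, the regulatory subunit of PI3 kinase, 443.8 (264 and 172). The SH2/SH3 adaptor gene dock had 213.5 and Pi3K92E, the catalytic subunit, 204.8.

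Among the TOR complexes, their TSC inhibitor and targets, 8 of 15 genes had a promoter peak (53.3% against 32.9% of all protein-coding genes). The strongest was REPTOR, a transcription factor that Tor holds inactive, with 1141.1 in the main list, 588 in replicate 1 and 533 in replicate 2, above every peak of the 9 genes. PRAS40, a substrate and inhibitor of the TOR complex, had 384.5, Thor, the 4E-BP brake on translation, 221.3 and RpS6, the S6k substrate, 203.5. In nutrient and energy sensing, 7 of 14 genes had one (50%), led by the sestrin gene Sesn, whose product restrains Tor, with 1184.8 in the main list and 665 and 555 in replicates 1 and 2. Wdr24, a subunit of the GATOR2 complex, had 606.5, Lkb1, the kinase of AMPK, 249.8 and SNF4Agamma, an AMPK subunit, 182.4. Of the 4 hypoxia genes, Hph, the prolyl hydroxylase of the hypoxia factor, had 119.2 and sima, that factor itself, 100, and neither had a promoter peak in both own lists.

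**Figure D5:**
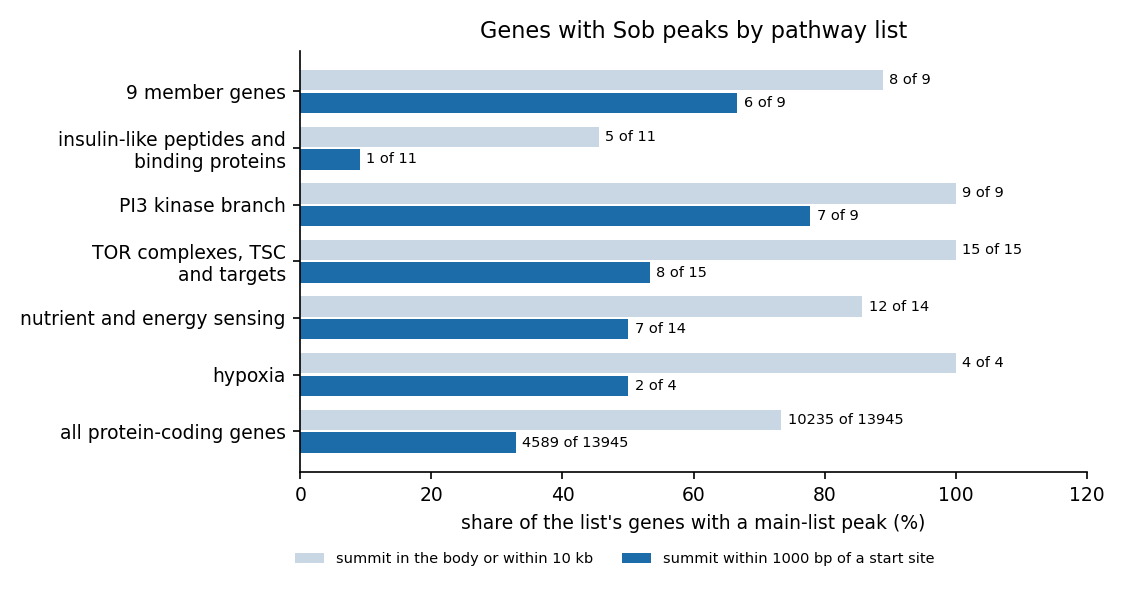
Share of genes (%) with a main-list summit within 1000 bp of a start site (dark bars) or in the gene body or within 10 kb (light bars), for the 9 genes, the other pathway lists and all protein-coding genes, with counts beside the bars. The dark bar runs from 9.09% for the insulin-like peptides to 77.8% for the PI3 kinase branch, and is 32.9% for all protein-coding genes.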

How the data were processed

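The data were ChIP-seq peak lists from 2 replicates on the dm6 build, per the labels. Each replicate has a ranked list and a thresholded (own) list, and 4 further lists draw on both replicates together. The signal of a peak is the authors' deposited value, with no scale stated. The deposited score comes from the authors' comparison of peak ranks, ends at 1000 and was at least 830 in every thresholded list. Aligner and peak caller: not given in the sources used here. In the ranked lists of both replicates, 16 columns hold values of single inputs that no name ties to a replicate, and they were not used. The files hold peaks and no read counts, so the depth is unknown.

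The main list, with 7002 peaks, has 7001 on the 6 main arms, and every main-list peak was found in a ranked list of 117372 peaks with the same score. Gene models came from Ensembl release 115 (annotation 6.54) and sequence from RefSeq release 6. A promoter spans 1000 bp on each side of a TSS. A summit in a promoter of any gene was counted there first, then by exon (UTR or coding), by intron, and otherwise as intergenic. Sharing 1 bp made an overlap, and a gene's expected count is its window times the mean density, 5.23 peaks per 100 kb. Tor was matched through a synonym, and 1 listed gene that matched no symbol, susi, was not analysed.

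The members, lists and motifs were chosen with earlier results of these data known, and no test was made. Genes named are the members, genes with the nearest coding TSS or a promoter at their peaks, genes between scyl and chrb, and the 4 highest of each list (or fewer where fewer had a promoter peak). Bre1 and vn, which hold a described summit in the gene body, were named after their values were seen. Alternatives were the conservative list, each own list, the stronger 50% of peaks, windows of 0, 5 and 20 kb, promoters of 500 and 2000 bp, 25 and 100 bp around summits, and stricter overlaps. The calculations used Python 3.11.15 with pandas 2.3.3 and scipy 1.17.1 and were tested on simulated data. No p-value is given, since no condition is compared.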

Additional observations from a re-analysis of the deposited data

How the results depend on the processing

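No paired analysis was possible because there was 1 group and no comparison between samples. The 30 peaks assigned to the 9 genes fell to 17 in the stronger 50% of the main list and to 10 in gene bodies alone, both by construction, since fewer peaks or less sequence were counted. The count was 25 in the conservative list, 23 within 5 kb and 40 within 20 kb. In the own lists of replicates 1 and 2, it was 25 and 21. The 6 genes with a promoter peak became 4 at 500 bp or in the stronger 50%, 5 in the conservative list and 7 at 2000 bp. In the own lists of replicates 1 and 2 the number was 6 and 5, the 5 with Akt and without foxo and chrb. The density ratio of the region from scyl to chrb stayed between 3.27 and 3.87. It was 3.48 and 3.80 in the own lists of replicates 1 and 2, and 3.50 with overlapping peaks joined, an alternative chosen after seeing the data. The 16 peaks in both own lists became 13 when 50% of both peaks had to overlap and stayed 16 with summits within 100 bp. Per gene, S6k had 3 peaks in the conservative list and 1 in each own list against 5, foxo had 3 in replicate 2's against 7, and chico had 4 within 20 kb against 0. Within 100 bp of the summits, GAGAG was at 6 of the 30 (25.1% of all summits), ACGTG at 4 (16.7%), TATCGATA at 1 (4.73%) and CAGGTAG at 1 (0.857%). Within 25 bp, GAGAG was at 2 (6.5%) and ACGTG at none (3.96%). Without read counts, peaks under the threshold in 1 replicate cannot be told from low depth there.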
